A study of Mus musculus with 8 samples.

Results

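The suppressor of cytokine signalling (SOCS) family of the mouse has 8 genes, Cish (which encodes CIS) and Socs1 to Socs7. All 8 were taken by symbol from a table of 45706 genes, and all 8 passed the filter on low counts that left 17000 tested genes. The family was chosen by name and selected on its known values in 2 RNA fractions, CPM in ribosome-bound RNA against tissue RNA, so the members' values are given as a description, without a p-value.

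RNA was obtained by translating ribosome affinity purification (TRAP), in which ribosomes carrying GFP-tagged RpL10a are pulled out of a homogenate with antibodies. The 4 immunoprecipitated (IP) libraries hold the ribosome-bound RNA of AgRP neurons, and the 4 input libraries hold RNA of the homogenate of the dissected arcuate region of the hypothalamus. Both fractions share 1 genotype, which joins Mfffl/fl with the Cre allele AgRP-IRES-Cretg/wt and the tag allele RpL10a-GFPfl/wt, and in which Cre expressed from the Agrp locus deletes floxed Mff (mitochondrial fission factor) and switches on the ribosome tag. The mice were random-fed, of mixed sexes and 11 to 12 weeks old, and 3 mice were pooled for each replicate. Libraries of mice with intact Mff are not analysed here, so the comparison is of ribosome-bound RNA of the AgRP lineage with tissue RNA within the deletion, and says nothing of the effect of the deletion.

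Cytokine and growth hormone receptors without a kinase of their own signal through JAK kinases, which phosphorylate STAT transcription factors. SOCS proteins close a negative feedback loop on that pathway. Each has an SH2 domain that binds phosphotyrosine and a SOCS box that recruits elongin B, elongin C and cullin 5, a ubiquitin ligase. CIS and SOCS1 to SOCS3 are closely related proteins whose genes are classically induced by STATs, and SOCS4 to SOCS7 have long N-terminal regions and are tied less closely to cytokine induction. In the hypothalamus SOCS3 is best known as an inhibitor of leptin receptor signalling.

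Sequence at the start of the gene is shown for the 3 members in which a STAT-type or interferon-type motif was found, with the matches in capitals. Windows from 250 bases before to 50 bases after the gene start (RefSeq, GRCm38.p6) could be matched for 4 of the 8 members, Cish, Socs1, Socs3 and Socs4. Positions are counted from 1 at that RefSeq start, with the base before it at -1. For Cish and Socs3 the RefSeq start lies inside the GENCODE M21 gene span given below. Each stretch is written 5′ to 3′ on the strand of its gene. Cish is shown from -5 to 25 (chr9:107296654-107296683, plus strand, in an exon of Cish-201), Socs1 from -125 to -26 (chr16:10785562-10785661, minus strand, outside annotated transcripts) and Socs3 from -200 to -101 (chr11:117969467-117969566, minus strand, in an intron of Socs3-202).
Cish: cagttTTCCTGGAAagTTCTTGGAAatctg
Socs1: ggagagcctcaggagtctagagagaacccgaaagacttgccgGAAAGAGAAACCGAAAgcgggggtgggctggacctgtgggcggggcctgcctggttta
Socs3: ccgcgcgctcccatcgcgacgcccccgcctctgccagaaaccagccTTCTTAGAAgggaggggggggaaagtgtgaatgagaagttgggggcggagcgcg

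The Cish stretch holds the core of the STAT consensus, TTCNNNGAA, at 2 places, as TTCCTGGAA at 1 to 9 and TTCTTGGAA at 12 to 20. Socs3 holds it once, as TTCTTAGAA at -154 to -146. This motif reads the same on both strands. It was present in 8.3% of 32851 RefSeq windows of the same length, and 0.457% held at least 2 copies. The wider-spaced form TTCNNNNGAA, which is also its own reverse complement, was in none of the 4 windows and in 6.95% of all windows. GAAANNGAAA, the type of repeat bound by interferon regulatory factors and searched on both strands, occurred at 2 places of the Socs1 window that overlap each other, -83 to -74 and -77 to -68, against 3.44% of all windows with at least 1 copy. The Socs4 window held none of these motifs. These matches describe letters in a window, not bound sites.

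Totals were 55.3, 50.3, 64.8 and 39.9 M estimated counts (M, mega) in IP replicates 1 to 4, against 58.3, 74.6, 44.1 and 45.3 M in input replicates 1 to 4. In counts per M counts (CPM, scaled by TMM factors), Agrp averaged 842 ± 170 in IP and 3.35 ± 0.74 in input (SD, n = 4 each), and all 10 AgRP neuron markers were higher in IP. Mff averaged 68.3 ± 3.09 CPM in IP and 124 ± 8.68 in input, but reads of the whole gene do not check a deletion of part of it. Summed CPM of 8 astrocyte markers were 778 to 1046 in IP and 2601 to 3238 in input, and those of 8 oligodendrocyte markers were 584 to 862 in IP and 2027 to 2569 in input. All 8 genes of either list were lower in IP and none was at 0 in all IP libraries. Microglia markers (6 of 8 lower) summed to 15.9 to 18.7 CPM in IP and 51.4 to 63.4 in input. Endothelial and mural markers summed to 14.1 to 39.1 CPM in IP and 40.9 to 52.7 in input. Of these, 3 of 10 were lower (Rgs5, Pdgfrb and Vtn), where 20.9% of all tested genes were. The endothelial genes Cldn5, Pecam1, Flt1, Slco1a4 and Ly6c1 did not pass the threshold. Markers of glutamatergic and ventromedial neurons were lower too, 6 of 6. Of 6 POMC neuron markers 3 were lower (Pomc, Prdm12 and Tac2). Cartpt (44.0 CPM in IP and 44.5 in input), Ttr and Kiss1 did not pass the threshold. Prdm12, with 0.0944 CPM in IP replicate 2, passed the count filter through input. IP libraries were less alike than input libraries, with mean correlations to their own fraction of 0.926 to 0.938 in IP, lowest in replicate 3, and 0.987 to 0.988 in input.

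The family fell into members far above input in IP and members close to it. Cish, Socs1, Socs2 and Socs3 were 4.35- to 5.37-fold higher in IP, with log2 fold changes of 2.12 to 2.43. Socs7 was 1.49-fold higher, and Socs4, Socs5 and Socs6 lay between 0.819- and 0.959-fold of input. In the fit over all tested genes (edgeR's quasi-likelihood test, Benjamini-Hochberg threshold 0.05), 5 of the 8 were past the threshold as higher, where 24.5% of all tested genes were, and 1 as lower, where 20.9% of all tested genes were. The CPM ranges of the fractions were apart, with IP above, for the same 5 members, against 24.1% of all tested genes, and no member lay wholly below input, against 24.0%. In either direction that is 5 of 8 members apart, against 48.1% of all tested genes, and 6 of 8 past the threshold, against 45.4%. The median log2 fold change was 1.35 over the members and -0.01 over all tested genes. Only 1.99% of tested genes had a log2 fold change above 2, as Cish, Socs1, Socs2 and Socs3 had. Since the members were proposed with this contrast in view, nothing is read from these counts.

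**Figure D1:**
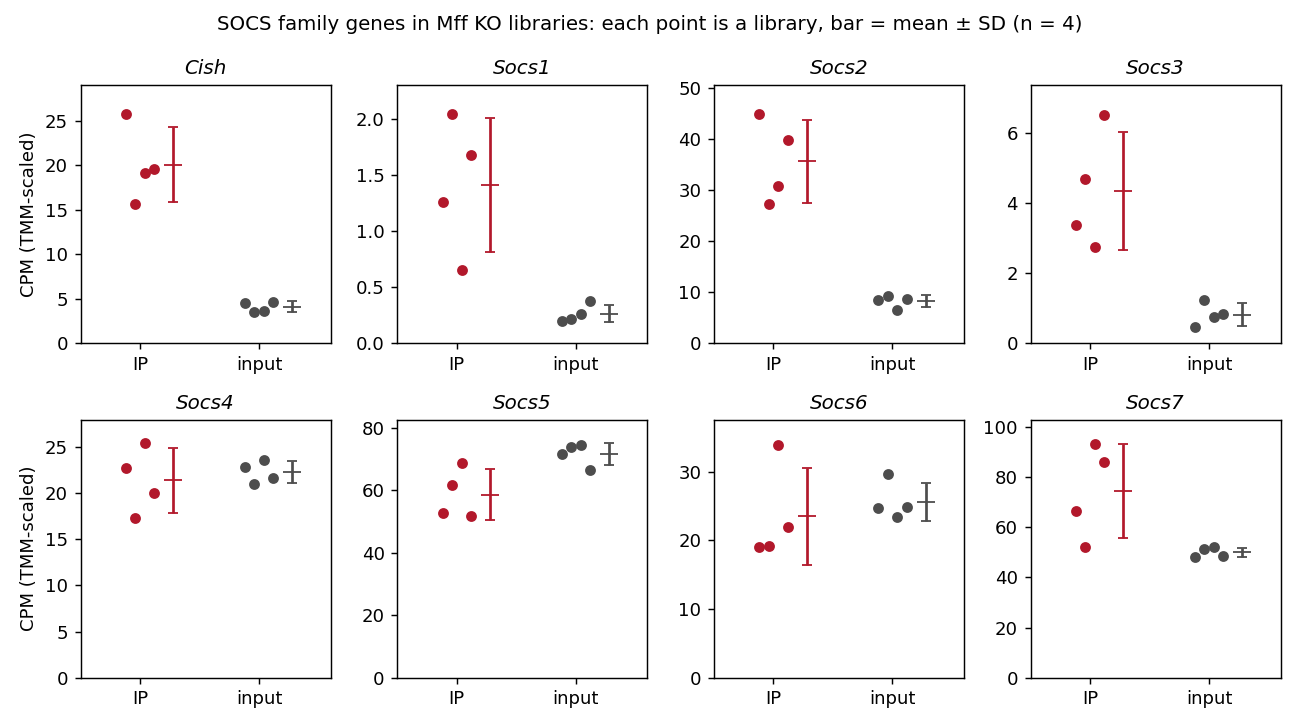
CPM of each SOCS family gene (vertical axes, TMM-scaled, each panel with its own scale from 0) in the 4 IP libraries (red) and the 4 input libraries (grey), with the mean and SD beside the points. The points of the fractions are apart for Cish, Socs1, Socs2, Socs3 and Socs7 and overlap for Socs4, Socs5 and Socs6.

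Among the cytokine-inducible members, Socs2 (ENSMUSG00000020027, GRCm38 chromosome 10, 95385362 to 95417180, minus strand) had the highest IP level. Its protein binds the growth hormone receptor and limits growth hormone signalling through STAT5. Socs2 had 45.0, 27.3, 30.8 and 39.9 CPM in IP replicates 1 to 4, against 8.42, 9.3, 6.44 and 8.65 CPM in input replicates 1 to 4. The lowest IP library lay well above the highest input library. The means were 35.7 ± 8.12 CPM in IP and 8.2 ± 1.23 CPM in input, a log2 fold change of 2.12 ± 0.18 (SE).

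Cish (ENSMUSG00000032578, chromosome 9, 107296026 to 107302784, plus strand) encodes CIS, which competes with STAT5 for phosphotyrosines of activated receptors. It had 25.8, 15.7, 19.1 and 19.6 CPM in IP, against 4.53, 3.46, 3.6 and 4.63 CPM in input. IP replicate 1 was the highest library for both Cish and Socs2, and the fractions did not overlap. The log2 fold change was 2.31 ± 0.19. An antisense gene, Gm17041, shares 479 exonic bases with Cish, and without a stated strand setting reads of the pair cannot be told apart with certainty. Gm17041 was listed at up to 1.34 CPM, in IP replicate 3, and Gm17040, a pseudogene sharing 261 bases, at up to 0.053 CPM.

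Socs3 (ENSMUSG00000053113, chromosome 11, 117966079 to 117970047, minus strand), induced by leptin and by IL-6 type cytokines, was sparse. It had 3.38, 4.7, 2.74 and 6.53 CPM in IP, against 0.455, 1.23, 0.744 and 0.814 CPM in input. IP was above input in every library, and the highest IP library was replicate 4. The log2 fold change was 2.41 ± 0.42, and the coefficient of variation was 38.6% in IP and 39.3% in input.

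Socs1 (ENSMUSG00000038037, chromosome 16, 10782240 to 10785536, minus strand), whose protein inhibits JAK kinases directly and restrains interferon signalling, had the lowest level and the least certain fold change of the family. Its estimated counts were 71, 108, 45 and 67 in IP, against 11, 16, 11 and 16 in input. In CPM these were 1.26, 2.04, 0.649 and 1.68 in IP, against 0.2, 0.216, 0.256 and 0.372 in input. The fractions did not overlap, although IP replicate 3 came closest to input. The log2 fold change was 2.43 ± 0.57, and Socs1 did not pass a filter of 1 CPM in 4 libraries. Input replicate 1, with 11 counts in 58.3 M, fell just short of the main count filter, which is scaled to library size. Socs1 thus passed that filter through IP, and its call as higher is no test of direction.

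The 4 fold changes of this group lay within 1 SE of the Socs1 estimate, so no order among them is given. IP replicate 3 had the lowest Socs1 and Socs3 levels, whereas IP replicate 2 had the lowest Cish and Socs2 levels. In bulk RNA, fewer cells of a type and less RNA per cell cannot be told apart, and the values are shares of a library. The lower marker sums of glia and other neurons in IP moved with these values, and their part in the result was not tested.

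Of the other members, Socs7 (ENSMUSG00000038485, chromosome 11, 97362551 to 97398542, plus strand), which has been linked to insulin receptor substrates and to the adaptor NCK, was the member with a smaller excess in IP. It had 66.6, 52.2, 93.1 and 86.0 CPM in IP, against 48.3, 51.2, 52.0 and 48.5 CPM in input. IP replicate 2 exceeded the highest input library only narrowly, and IP varied more (coefficient of variation 25.0%) than input (3.72%). The log2 fold change was 0.57 ± 0.15.

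Socs5 (ENSMUSG00000037104, chromosome 17, 87107679 to 87137839, plus strand) can target the epidermal growth factor receptor and IL-4 receptor signalling. It had 52.8, 61.7, 68.8 and 51.7 CPM in IP, against 71.8, 73.9, 74.6 and 66.6 CPM in input. IP replicate 3 lay above the lowest input library, so the fractions overlapped slightly. The log2 fold change was -0.29 ± 0.10. This was the only member past the threshold as lower, and it was no longer past it without IP replicate 1 or 4, or without any 1 of the 4 input replicates.

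Socs4 (ENSMUSG00000048379, chromosome 14, 47276931 to 47296102, plus strand), also tied to the epidermal growth factor receptor, had 22.7, 17.3, 25.5 and 20.0 CPM in IP, against 22.9, 21.0, 23.6 and 21.7 CPM in input. The IP libraries lay on both sides of the input range, and the log2 fold change was -0.06 ± 0.13. Offsets for GC content and transcript length turned its sign, to 0.37, and put it past the threshold as higher.

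Socs6 (ENSMUSG00000056153, chromosome 18, 88665224 to 88927481, minus strand), whose protein can bind the KIT receptor and insulin receptor substrates, had 19.0, 19.1, 33.9 and 22.0 CPM in IP, against 24.7, 29.6, 23.4 and 24.8 CPM in input. IP replicate 3 was above every input library, and the other IP libraries were below them. The log2 fold change was -0.12 ± 0.18. Without IP replicate 3 it was -0.35 and past the threshold, and with offsets for GC content and length it was 0.22.

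**Figure D2:**
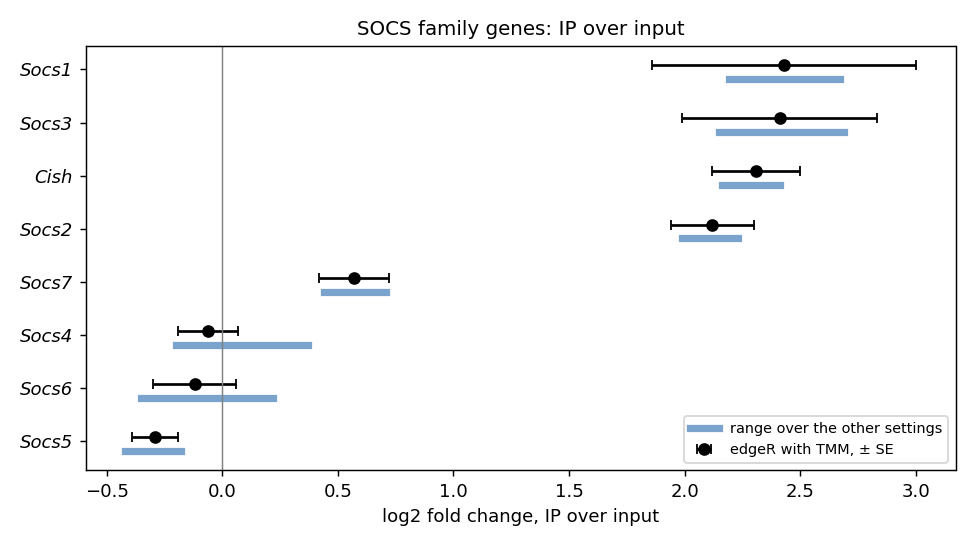
Log2 fold change of IP over input for each member (points, with SE) and the range over the other processing settings, leave-one-out fits included (blue bars). Cish, Socs1, Socs2 and Socs3 stay between 1.99 and 2.69 and Socs7 between 0.44 and 0.71, whereas the bars of Socs4 and Socs6 cross 0.

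Levels were compared between genes only as CPM per kb of the longest protein-coding transcript. In IP, Socs2 averaged 16.1 ± 3.65 CPM per kb, Socs5 12.6 ± 1.73, Socs7 10.6 ± 2.65 and Cish 7.04 ± 1.48 (SD, n = 4 each). Socs6 followed with 3.89 ± 1.17, Socs4 with 3.11 ± 0.512, Socs3 with 1.7 ± 0.657 and Socs1 with 0.484 ± 0.206 CPM per kb. The ranges of neighbours in that order overlapped except for Socs3 and Socs1, so Socs2 and Socs5, for example, are not ordered. In input, Socs5 led with 15.4 ± 0.782 CPM per kb, ahead of Socs7 with 7.13 ± 0.265, Socs6 with 4.24 ± 0.454, Socs2 with 3.69 ± 0.554 and Socs4 with 3.25 ± 0.169. Cish, with 1.42 ± 0.213, Socs3, with 0.317 ± 0.125, and Socs1, with 0.0897 ± 0.0267 CPM per kb, were the lowest. Only Socs6 with Socs2 and Socs2 with Socs4 had overlapping ranges as neighbours in input. Socs1 was the lowest member in both fractions, also with the median transcript length in place of the longest. The place of Socs3 depended on that choice, since with the median length it averaged 8.85 CPM per kb in IP, above Cish with 7.31 and Socs4 with 5.77, and 1.65 CPM per kb in input, above Cish with 1.48. So did the place of Socs6, with 13.6 in IP, above Cish, and 14.8 in input, above Socs7 with 13.3. Socs2 lay below Socs5 and Socs7 in input, without overlap.

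The make-up of the family was therefore unlike in the fractions. Cish and Socs1 to Socs3 together held 53.2%, 43.5%, 36.9% and 48.3% of the summed family level per kb in IP replicates 1 to 4, against 15.9%, 16.0%, 12.9% and 17.3% in input. The lowest IP share was above the highest input share. Their summed level was 25.3 ± 5.05 CPM per kb in IP and 5.52 ± 0.67 in input, while Socs4 to Socs7 summed to 30.3 ± 4.98 in IP and 30.1 ± 1.19 in input. The family as a whole reached 55.6 ± 5.89 CPM per kb in IP and 35.6 ± 1.11 in input. Socs2 alone held 28.8 ± 5.00% of the family level in IP and 10.4 ± 1.47% in input, and Socs5 held 23.0 ± 4.46% in IP and 43.4 ± 1.63% in input.

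**Figure D3:**
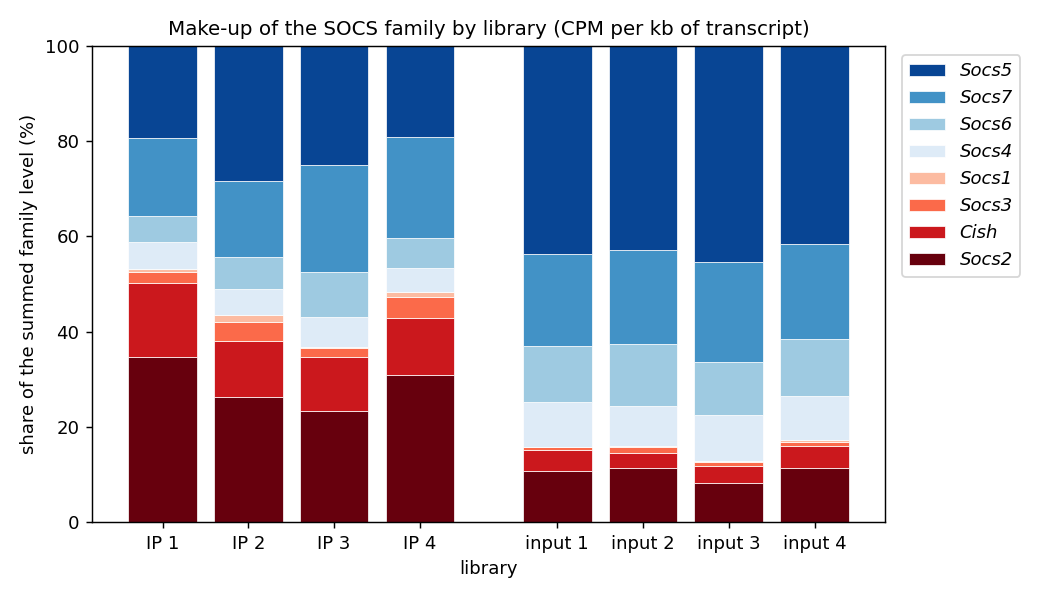
Share of the summed SOCS family level (CPM per kb of transcript, in percent) held by each gene in each library, with Cish and Socs1 to Socs3 in reds and Socs4 to Socs7 in blues. The red part is 36.9% to 53.2% of the IP bars and 12.9% to 17.3% of the input bars.

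The surroundings of the family in the pathway were read from 8 lists of 143 genes, of which 121 were tested. In the same fit 39 of these (32.2%) were higher in IP and 21 (17.4%) lower, against 24.5% and 20.9% of all tested genes, and their median log2 fold change was 0.07. The counts of each list below stand beside those same shares of all tested genes.

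Among 23 receptor genes 21 were tested, and 8 were higher and 4 lower in IP (median 0.44). Of the lower genes, Il10ra (0.0177 to 0.432 CPM in IP) and Csf2rb (0.0 to 0.144) passed the count filter through input. Their calls as lower are therefore no test of direction. The count of lower genes was 2 with the filter of 1 CPM in 4 libraries. Ghr, the growth hormone receptor that SOCS2 restrains, had 140, 143, 157 and 226 CPM in IP, against 13.6, 12.4, 13.7 and 13.7 CPM in input (log2 fold change 3.64 ± 0.15, adjusted p = 2.1e-08). Lepr, the leptin receptor that SOCS3 binds, had 8.17, 10.9, 9.32 and 15.6 CPM in IP, against 2.65, 2.05, 2.28 and 1.91 CPM in input (2.30 ± 0.24, adjusted p = 1.61e-05). Both receptors had IP levels above input in every library. Il2rg, the common gamma chain of several interleukin receptors, averaged 6.36 ± 1.47 CPM in IP and 0.124 ± 0.0679 CPM in input (5.62 ± 0.47, adjusted p = 2.7e-06). Its input libraries had 0.0233 to 0.164 CPM, so it passed the count filter through IP. Its call as higher is therefore no test of direction. Prlr, the prolactin receptor, was lower in IP, with 10.8 ± 1.27 CPM against 34.7 ± 1.86 CPM in input (-1.68 ± 0.11, adjusted p = 5.66e-07). Lifr, the LIF receptor, was lower too (-0.66 ± 0.16, adjusted p = 0.00553).

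The ligands were barely present. Only 4 of 16 were tested, and 2 were lower and none higher (median -2.34). On leaving out IP replicate 1 the count was 3, and on leaving out IP replicate 2 or 3, or input replicate 2, it was 1. Leaving out input replicate 1, 3 or 4 gave a count of 0. Ctf1 (cardiotrophin 1) was lower in IP (log2 fold change -1.61 ± 0.54, adjusted p = 0.0303), but its adjusted p was 0.0601 to 0.103 without an input replicate. Of the 4 tested ligands, Lif and Cntf were at 0 in IP replicates 2 and 3 and passed the count filter through input. Ctf1, with 0.17 CPM in IP replicate 2, also passed it through input. For such genes the filter favoured a lower value in IP, so nothing is read from the direction of this list.

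Of 10 tested JAK and STAT genes 2 were higher in IP and none lower (median -0.08). Stat3, the main STAT of leptin signalling, had 114, 114, 99.8 and 88.7 CPM in IP, against 29.7, 30.4, 27.7 and 28.3 CPM in input (1.84 ± 0.09, adjusted p = 7.29e-08). Stat5a, 1 of the STATs of growth hormone signalling, was higher by 1.31 ± 0.37 (adjusted p = 0.0131), with overlapping fractions. Stat5b (0.25 ± 0.14, adjusted p = 0.176) and Jak2 (-0.19 ± 0.19, adjusted p = 0.458) did not pass. Without IP replicate 3, 1 gene of this list was lower.

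The ligase partners of the SOCS box had 7 of 10 genes higher and none lower (median 0.51), and 1 was lower without IP replicate 3. Tceb2, the symbol in the table for elongin B, averaged 186 ± 10.2 CPM in IP and 80.5 ± 3.62 CPM in input (1.21 ± 0.07, adjusted p = 1.18e-07). Nedd8, the modifier that activates cullins, was higher by 1.00 ± 0.07 (adjusted p = 7.84e-07). With offsets for GC content and length both stayed past the threshold with smaller values, 0.46 for Tceb2 and 0.44 for Nedd8. Among other genes with a SOCS box, 5 of 21 tested were higher and 3 lower (median 0.12), where 24.5% and 20.9% of all tested genes were. Asb4, an ankyrin repeat member found in arcuate neurons, averaged 151 ± 19.3 CPM in IP and 38.4 ± 4.51 CPM in input (1.98 ± 0.11, adjusted p = 1.34e-07). Wsb2 was higher by 0.73 ± 0.07 (adjusted p = 6.52e-06), and its relative Wsb1 was lower (-1.36 ± 0.22, adjusted p = 0.000399). Asb18 was lower too (-2.51 ± 0.61, adjusted p = 0.00563). It had 0.1 CPM in IP replicate 4 against 2.18 to 3.26 CPM in input, and passed the count filter through input. The call of Asb18 as lower is therefore no test of direction.

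The list of other negative regulators of the pathway was mixed. Of 16 tested, 5 were higher and 2 lower (median 0.08), and 3 were higher without input replicate 4. Sh2b1 was higher by 0.51 ± 0.10 (adjusted p = 0.00204), and although the list holds it, its protein is known to enhance JAK2 activity. Grb10, an adaptor that inhibits insulin signalling, was higher by 0.42 ± 0.08 (adjusted p = 0.00135). The ubiquitin ligase gene Cbl was lower (-0.58 ± 0.10, adjusted p = 0.000882). Ptprc, the leukocyte phosphatase CD45, was at 0 in IP replicates 3 and 4 and below 1 CPM in all 8 libraries (-3.91 ± 1.12, adjusted p = 0.014). It passed the count filter through input, so its call as lower is no test of direction. Its log2 fold change ran from -6.46, without IP replicate 2, to -3.46 over the other settings.

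Known STAT targets outside the family, which also include glial genes, had 10 of 24 higher and 4 lower (median 0.29). Myc was higher by 1.64 ± 0.16 (adjusted p = 1.08e-05) and Bcl2l1, which encodes the survival protein BCL-XL, by 0.72 ± 0.10 (adjusted p = 0.000125). Igf1 (-1.41 ± 0.17, adjusted p = 4.08e-05) and the astrocyte gene Gfap (-0.99 ± 0.13, adjusted p = 6.7e-05) were lower.

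Binding partners and substrates of SOCS proteins had 2 of 15 higher and 6 lower (median -0.29). The insulin receptor substrate Irs4 averaged 1117 ± 135 CPM in IP and 127 ± 5.78 CPM in input (3.14 ± 0.09, adjusted p = 1.33e-09), and Irs2 was higher by 0.76 ± 0.10 (adjusted p = 6.61e-05). Egfr, the receptor linked to SOCS4 and SOCS5, was lower (-1.82 ± 0.35, adjusted p = 0.00134), as was the focal adhesion kinase gene Ptk2 (-0.91 ± 0.13, adjusted p = 0.000142).

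**Figure D4:**
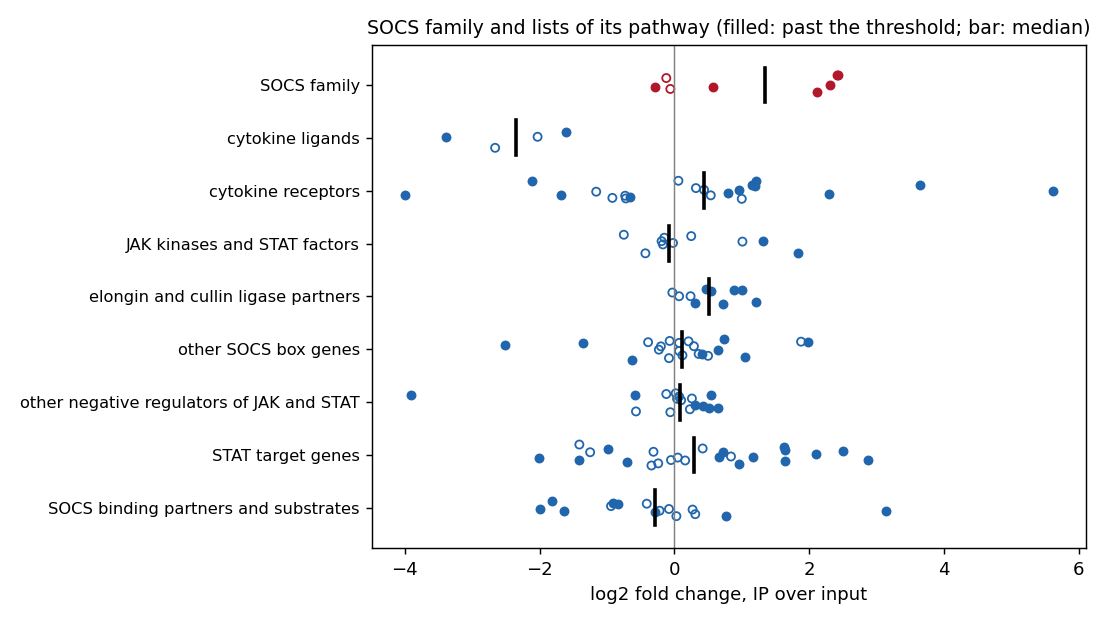
Log2 fold change of IP over input for the tested genes of the SOCS family (red) and of 8 pathway lists (blue), with filled points past an adjusted p of 0.05 and black bars at each list's median. The family has its median at 1.35 and points at both 2.12 to 2.43 and -0.29 to 0.57, and the list medians run from -2.34 to 0.51. The lowest median is that of the 4 tested ligands, all sparse.

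The genes most like the members at either end of the fold change were found by the root mean square difference of centred log2 CPM over the 8 libraries. For Socs1, whose estimated log2 fold change was the highest though within 1 SE of those of Cish, Socs2 and Socs3, these were Adgrg6 (0.21), Sfrp4 (0.24), Gm7027 (0.3), 4933427G17Rik (0.31) and Crhr1 (0.31). For Socs5, with the lowest estimate, they included Gpd1l (0.05), Ino80d (0.06), Wipf2 (0.07) and Eif5a2 (0.07). The likeness is across 8 libraries of 2 fractions, so it is mostly a like difference between fractions, and no relation between these genes is implied.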

How the data were processed

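Per the submitters' processing notes, the authors used Salmon 0.14.1 and GRCm38.p6. The deposited table holds estimated counts per gene, not normalized. Which annotation, trimming or strand option went with Salmon is not stated in the labels. Samples were grouped by title. Estimated counts were rounded and tested over 17000 genes (filterByExpr, minimum count 10) with edgeR 4.0.16 in R 4.3.3, TMM factors, the quasi-likelihood test and no covariate, with Benjamini-Hochberg adjustment at 0.05. Log2 fold changes are IP over input, and CPM compare shares of a library. Pools of mice are the replicates. The main fit treats the libraries as unpaired, so p-values measure the spread between libraries within a fraction. Gene positions and transcript lengths come from GENCODE M21 and promoter windows from RefSeq. The members and lists were chosen with earlier results of these data known. Named pathway genes are, per list, up to 2 with the smallest p in each direction among those past the threshold without overlap, plus Lepr, Jak2, Stat3, Stat5a, Stat5b and Asb4. 1 of the 5 genes most like Socs5 is not reported here. No list was given a set test. Other normalizations, filters and tools (DESeq2 1.42.0, limma 3.58.1), offsets for GC and length, a replicate block and leaving out each library were tried.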

Additional observations from a re-analysis of the deposited data

Results flagged for a closer look

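No SOCS member had a library past Dixon's 95% critical value in its fraction. Socs6 in IP replicate 3 still stood off, at 33.9 CPM with the nearest at 22.0. Among 78 sets of 4 libraries checked (the named genes in each fraction), 6 had 1 library far from the nearest other (past Dixon's 95% critical value), and chance gives about 1 in 20. In IP, Irs2 had 39.4 CPM in replicate 3, with the nearest at 43.5, Ptk2 had 17.9 CPM in replicate 2, with the nearest at 13.8, and Ptprc had 0.17 CPM in replicate 2, with the nearest at 0.0177. In input, Cbl had 70.4 CPM in replicate 2, with the nearest at 58.2, Ghr had 12.4 CPM in replicate 2, with the nearest at 13.6, and Il2rg had 0.0233 CPM in replicate 4, with the nearest at 0.148.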

How the results depend on the processing

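Under 20 other settings Cish (2.16 to 2.41), Socs2 (1.99 to 2.23), Socs3 (2.15 to 2.69) and Socs7 (0.44 to 0.71) stayed past the threshold, as did Socs1 (2.19 to 2.67) under the 19 in which it was tested. Socs5 (-0.42 to -0.18) stayed past it in 11 of 20. These calls reuse the contrast with which the members were proposed, so they show only how the fit depends on processing. The count of lower members was 0 with library totals alone and with offsets for GC and length, with or without the replicate block, and 0 to 2 on leaving out a library. The count of higher members was 6 with those offsets, with or without the block, since Socs4 joined them, and 4 with the filter of 1 CPM, which leaves out Socs1. Socs4 was 0.37 and Socs6 0.22 with those offsets, and 0.36 and 0.20 with the replicate block added. With the median transcript length in place of the longest, 4 members kept their place in the order in IP and 4 in input. The replicate block gave 5 higher and 1 lower member. Same-numbered libraries correlated by 0.048 to 0.084 in their deviations, and libraries of unlike number by -0.038 to -0.002. Each IP library correlated best with its own number. The labels do not say whether a number marks 1 pool, so pairing is not excluded, and the main fit does not use it. Genes higher in IP numbered 3342 to 4832 over the settings and genes lower 2862 to 4606, against 4171 and 3545. Upper quartile scaling moved the median of all genes by -0.134 and library totals alone by 0.102 on the log2 scale. Of 618 alternative values for 31 named genes outside the family, 611 kept direction and call. Most of these genes were named for a small p in the same libraries, so that count does not measure how well the lists hold. Ctf1 lost its call with no filter (adjusted p = 0.0655), with the block (0.0782) and without an input replicate, and Lifr with offsets and block (-0.42, adjusted p = 0.0612). The cause of these changes was not tested. Socs1 had the fewest counts of the family, 11 to 16 in the input libraries.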
